A study of Mus musculus with 58 samples.

Results

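The lowest dose of benz(a)anthracene (BaA), 20 mg/kg-bw/day, was compared with vehicle in mouse lung. The members were chosen by the sample titles as the lung arrays of D1 mice 6 to 10 and of D0 mice 1 to 5, which made 10 of the 58 arrays of the series, 1 array per mouse. All 10 were male Muta™Mouse animals of about 10 weeks, a transgenic line that carries a bacterial lacZ gene for scoring mutations, housed individually and gavaged daily for 28 days. D0 mice received olive oil alone and D1 mice BaA in olive oil, and tissue was frozen 72 h after the last dose. The lung RNA of each mouse, from a random section, was labelled with Cy5 and hybridised with a universal reference RNA of 11 mouse cell lines in Cy3, without dye swaps. The 10 further lung arrays, from mice given 40 (D2) or 80 (D3) mg/kg-bw/day, served to estimate the spread and for direct comparisons with D1.

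BaA is a polycyclic aromatic hydrocarbon. Such compounds bind the aryl hydrocarbon receptor (AhR), a transcription factor held in the cytoplasm by Hsp90, which then enters the nucleus, pairs with ARNT and binds xenobiotic response elements in genes such as Cyp1a1 and Cyp1b1. The enzymes these genes encode oxidise the hydrocarbon, and some of the oxidised products bind DNA. Lung holds, beside its epithelium, resident macrophages and passing neutrophils and lymphocytes, and its chaperone genes are driven by heat shock factors when proteins misfold.

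Values are log2 ratios of Cy5 to Cy3 after loess, and differences are D1 minus D0 on that scale with the standard error (SE) of limma's fit. Of the probes, 30383 were tested, standing for 14523 named genes. The share of spots well above background lay between 44.4% and 55.2% over the 20 lung arrays, and was 50.3% ± 4.44 (SD, n = 5) at D0 and 51.1% ± 3.17 (n = 5) at D1, an exact two-sided permutation p of 0.8175 where the smallest possible was 0.00794. Lung markers were present on all 10 arrays. Sftpc, of alveolar type 2 cells, was at 7.52 ± 0.20 (SD) at D0 and 7.45 ± 0.17 at D1, and Scgb1a1, of club cells, at 8.62 ± 0.19 and 8.41 ± 0.26. Some arrays stood apart. D0 mouse 5 was high for skeletal muscle genes, with Tnni2, fast skeletal troponin I, at 6.88 against -0.66 to -0.46 in the other D0 mice and -1.15 to -0.52 at D1. The same array was high for squamous epithelium, with the keratin gene Krt14 at 3.54 against -1.14 to -0.20 in the other D0 mice. Heart muscle genes were high in D0 mice 4 and 5, with Myl4, an atrial myosin light chain, at 5.37 and 4.64 and at 0.50 to 2.73 in the 8 others. Values without D0 mouse 5 are given below for the muscle and squamous lists, for AhR target genes and for the heat shock genes called without it.

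No probe was differentially expressed between D1 and D0 at an adjusted p of at most 0.05 and a fold change of at least 1.5, so percent called was 0. The smallest adjusted p was 0.116. At an unadjusted p under 0.05 there were 2267 probes (7.46%), against 1519 that uniform p-values would give, and 1388 of them (4.57% of all probes) were higher at D1 and 879 (2.89%) lower. By gene, 850 (5.85%) were higher and 408 (2.81%) lower at that threshold. The D0 and D1 mice did not overlap for 98 genes that were higher (0.675%) and 61 that were lower (0.42%). The median difference of all genes was 0.01. Higher calls made up 61.2% of the probes under p 0.05 here and 84.4% (416 higher, 77 lower) when arrays were centred on their median instead of normalised by loess, which moved the median difference of all genes to 0.24. With slide as a block 1 probe, without a gene name here, was called as lower, and the same with the authors' log2 ratios. Without D0 mouse 5, 6 probes were called, all lower at D1, and 4 of them were Hspa1a, Dnaja1, Chordc1 and Gpr141b. Without D1 mouse 6, 2 were called, both higher, and 1 of them was Igsf6. Leaving out any other single mouse called 0. The same fit called 169 probes for D2 minus D0 (0.556%, with 0.484% higher and 0.0724% lower) and 572 for D3 minus D0 (1.88%, with 1.32% higher and 0.566% lower), with the D0 mice shared by all of these comparisons. The accounts below are therefore of sizes, single-mouse values and counts, and no gene named in them passed adjustment at D1 unless that is stated.

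**Figure D1:**
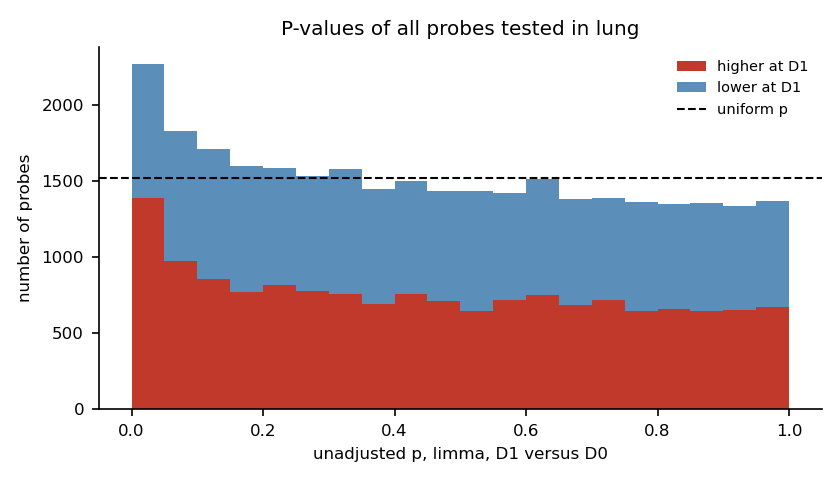
Unadjusted limma p-values (x axis, 20 bins) of the 30383 probes tested in lung, D1 versus D0, against the number of probes (y axis), split by the direction at D1, with a dashed line for uniform p-values. The lowest bin holds 2267 probes, 1388 of them higher at D1, against 1519 for a uniform distribution.

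Among the 10 AhR target genes tested, the P450 genes Cyp1b1 and Cyp1a1 and the receptor's repressor Ahrr had higher means at D1, while most of the second-line detoxification genes had lower ones. In all, 4 were higher and 6 lower, with a median of -0.06 (0.11 with median centring, under which 6 were higher), and 2 were higher and 2 lower at an unadjusted p under 0.05. Within the 3 slides the median was 0.12, 0.25 and -0.51. Cyp1a2 was on the array but not bright enough in lung to be tested.

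The promoters of the 3 genes with higher means and a P450 or repressor role are printed because the receptor's binding core can be read in them. The sequences are RefSeq's for GRCm38.p6, each 300 bases around the start site and 5′ to 3′ on the gene's strand. They are chr9:57697363-57697662 (plus strand), chr17:79715012-79715311 (minus strand) and chr13:74292282-74292581 (minus strand). Capitals mark the XRE core, GCGTG or its reverse complement CACGC.
Cyp1a1: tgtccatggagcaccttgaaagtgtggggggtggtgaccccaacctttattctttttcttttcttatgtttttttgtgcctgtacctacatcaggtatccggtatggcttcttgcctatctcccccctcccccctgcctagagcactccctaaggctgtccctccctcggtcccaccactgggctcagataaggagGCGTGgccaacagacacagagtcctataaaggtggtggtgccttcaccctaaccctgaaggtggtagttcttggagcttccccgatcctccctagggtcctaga
Cyp1b1: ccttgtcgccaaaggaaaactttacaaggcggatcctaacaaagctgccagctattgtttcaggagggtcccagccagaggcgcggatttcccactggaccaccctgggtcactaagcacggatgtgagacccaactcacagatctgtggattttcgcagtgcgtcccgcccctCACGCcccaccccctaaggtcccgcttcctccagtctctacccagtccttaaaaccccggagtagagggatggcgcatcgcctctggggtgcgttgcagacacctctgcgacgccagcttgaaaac
Ahrr: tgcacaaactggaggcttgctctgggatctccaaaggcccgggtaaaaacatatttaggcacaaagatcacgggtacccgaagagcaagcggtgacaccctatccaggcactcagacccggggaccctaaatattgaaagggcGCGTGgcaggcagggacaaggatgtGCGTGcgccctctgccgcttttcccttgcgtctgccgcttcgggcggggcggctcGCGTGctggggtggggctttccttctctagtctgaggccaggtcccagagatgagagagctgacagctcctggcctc
Cyp1a1 and Cyp1b1 hold 1 core each and Ahrr holds 3, at 107, 82 and 27 bases before the start. A core was found in the promoters of 6 of the 9 target genes with an entry (66.7%) and in 32.4% of all 32851 promoters in the table, so the match is a description only.

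Cyp1a1 was at 3.22, 2.89, 2.84, 1.76 and 2.42 in D0 mice 1 to 5 and at 0.73, 3.92, 6.06, 6.87 and 0.89 in D1 mice 6 to 10. D1 mice 7, 8 and 9 lay above every vehicle mouse and D1 mice 6 and 10 below every one, so that the groups interleaved. The mean difference was 1.07 (SE 0.89, adjusted p = 0.843), and within the 3 slides it was -2.32, 3.63 and 0.31. Without D1 mouse 9 it was 0.27, without D1 mouse 8 it was 0.48 and without D1 mouse 6 it was 1.81. Cyp1b1, which also metabolises hydrocarbons outside the liver, was at -1.06, -1.31, -1.36, -1.41 and -1.49 at D0 and at -0.72, 1.25, 0.37, 0.58 and -1.30 at D1. The same D1 mice 7, 8 and 9 were high, D1 mouse 6 was just above the vehicle range and D1 mouse 10 inside it. The difference was 1.36 (SE 0.33, adjusted p = 0.252), a fold of 2.57. Ahrr, which competes with the receptor for ARNT, was at -0.56, -0.52, -0.75, -0.61 and -0.39 at D0 and at -0.21, 0.30, 0.20, 0.36 and -0.36 at D1. All 5 D1 mice were above all 5 D0 mice, and the 3 highest were again mice 7, 8 and 9. The difference was 0.62 (SE 0.14, adjusted p = 0.199). Ahrr was dim, well above background on 1 of 5 D0 and 4 of 5 D1 arrays. The nearest values of the groups, D0 mouse 5 at -0.39 and D1 mouse 10 at -0.36, were both not well above it. Without D1 mouse 6 the adjusted p was 0.0748 for Cyp1b1 and 0.07 for Ahrr, so neither passed.

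Tiparp, another feedback repressor of the receptor, was at 0.37 ± 0.10 (SD) at D0 and 0.37 ± 0.24 at D1 (SE of the difference 0.10), and a second probe differed by 0.17. The glucuronosyltransferase gene Ugt1a6a differed by 0.03 (SE 0.14). The quinone reductase gene Nqo1 was lower by a log2 difference of -0.30, the aldehyde dehydrogenase gene Aldh3a1 by -0.72, the epithelial P450 gene Cyp2s1 by -0.43 and the glutathione transferase genes Gsta1 and Gsta2 by -0.58 and -0.12, the last turning to 0.11 with median centring. Aldh3a1 was at 0.53, 0.70, 0.53, 0.95 and 3.05 in D0 mice 1 to 5 and at 0.42, 0.10, 0.72, 0.84 and 0.09 in D1 mice 6 to 10. The value of 3.05 belongs to D0 mouse 5, the array high for muscle and squamous genes. Without that mouse the differences were -0.25 for Aldh3a1, -0.16 for Nqo1, -0.31 for Gsta1 and -0.35 for Cyp2s1, and 0 AhR target genes were lower at an unadjusted p under 0.05. Gsta1 and Gsta2 are near copies of each other, as are Ugt1a6a and its neighbour, and their probes may share signal.

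**Figure D2:**
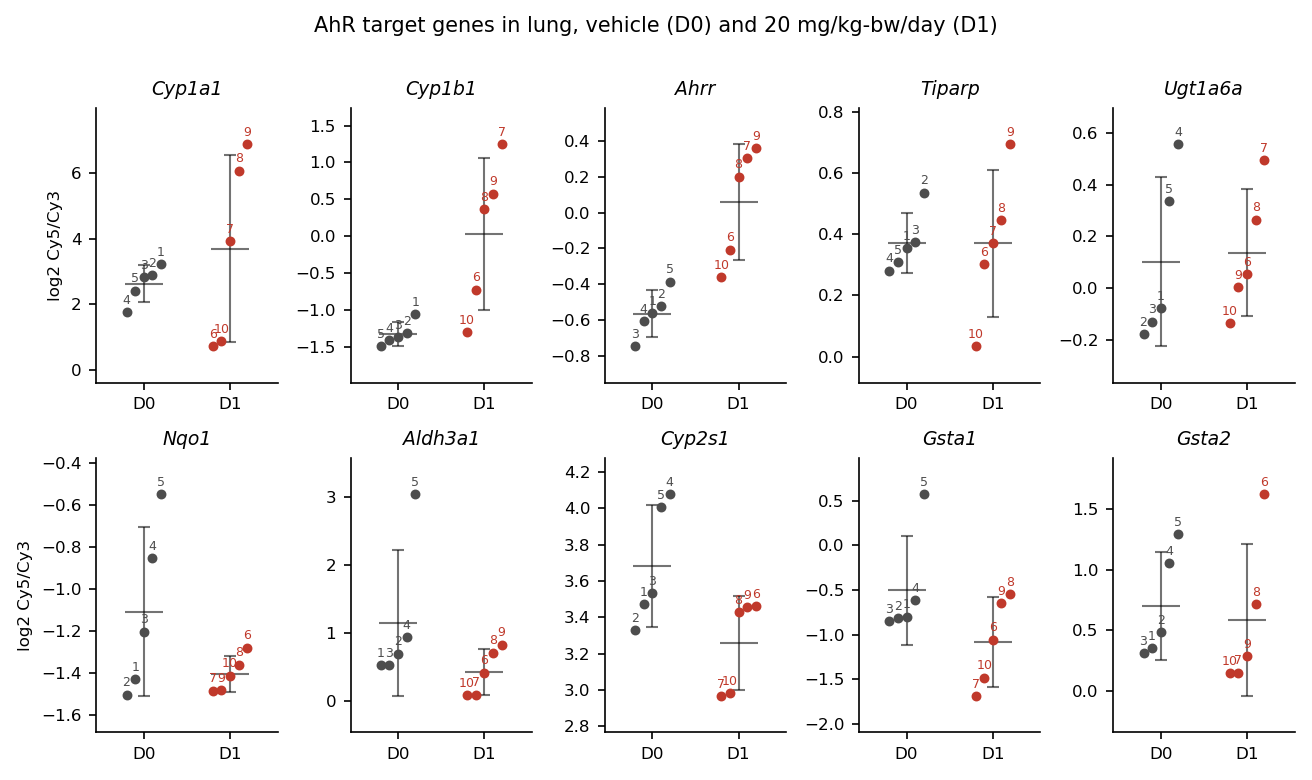
Log2 Cy5/Cy3 (y axis) of the 10 AhR target genes tested in lung, by mouse (points, numbered by mouse), with the group mean and SD, for D0 and D1 (x axis). D1 mice 7, 8 and 9 are the 3 highest D1 mice for Cyp1a1, Cyp1b1 and Ahrr, while D0 mouse 5 is the highest vehicle mouse for Nqo1, Aldh3a1, Gsta1 and Gsta2.

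Of the 10 genes of the AhR signalling machinery tested, 5 were higher and 5 lower, with a median of -0.01 (0.25 with median centring, 9 higher). Ahr itself, the receptor, had a difference of 0.28 (SE 0.11, adjusted p = 0.552) by one probe and of 0.03 (SE 0.11, adjusted p = 0.968) by another. Hsp90aa1, the chaperone that holds the receptor, was lower by a log2 difference of -0.44 (SE 0.19), and Ptges3, the p23 co-chaperone of the same complex, by -0.28 (SE 0.12), which turned to 0.04 with median centring. Both missed the threshold after adjustment, with adjusted p of 0.613 and 0.589.

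The genes on the path from oxidised hydrocarbon to DNA damage were split in direction. Of 14 Nrf2 and glutathione genes 5 were higher (median -0.07, or 0.24 with median centring). Srxn1, which repairs oxidised peroxiredoxins, was higher by 0.27 and the peroxiredoxin gene Prdx1 by 0.19 (0.07 by a second probe), while the glutathione transferase gene Gsta4 was lower by a log2 difference of -0.40. Of 11 lung xenobiotic metabolism genes 1 was higher, with a median of -0.15 and 0 at an unadjusted p under 0.05, and the club cell P450 gene Cyp2f2 was at 7.05 ± 0.23 (SD) at D0 and 6.90 ± 0.15 at D1. With median centring 10 of those 11 were higher and Cyp2f2 differed by 0.20. Of 19 p53 target genes 7 were higher and 12 lower (median -0.05, or 0.23 and 17 higher with median centring). The stress kinase gene Plk2 was higher by 0.35 (SE 0.12) and the growth inhibitor gene Btg2 lower by a log2 difference of -0.14 (SE 0.07), or higher by 0.16 with median centring. Among 18 nucleotide excision repair genes 11 were higher (median 0.04), and 1 member was under p 0.05. At that threshold 5.85% of all genes were higher, so the count is near the share of all genes. The member was Xpa, which verifies the damaged strand, at 0.15 (SE 0.07) and at 0.26 by a second probe. The 14 proliferation genes had a median of -0.01, with 0 members under that threshold.

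Heat shock genes were lower at D1. All 16 tested were lower (12 with median centring), where 52.6% of all genes were higher, and 12 of them had an unadjusted p under 0.05 against 2.81% of all genes. For 3 of them the groups did not overlap, against 0.42% of all genes. Their median difference was -0.47, where that of all genes was 0.01. The list covers the inducible Hsp70 Hspa1a, its constitutive relative Hspa8, the Hsp110 Hsph1, J-domain co-chaperones, Hsp90 with its co-chaperones and the mitochondrial chaperonin, proteins that fold, hold or refold others. Under median centring, which moved the median of all genes up to 0.24, 4 of the 16 were higher and the list's median was -0.12, with 1 member under the threshold.

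Promoters of 3 of the genes with the lowest p-values are printed for the heat shock element, the inverted repeats that heat shock factors bind. They are chr17:34972107-34972406 (minus strand), chr4:40722218-40722517 (plus strand) and chr9:18292017-18292316 (plus strand), of the same source and length as above. Capitals mark GAANNTTC, a pair of inverted units that is its own reverse complement.
Hspa1a: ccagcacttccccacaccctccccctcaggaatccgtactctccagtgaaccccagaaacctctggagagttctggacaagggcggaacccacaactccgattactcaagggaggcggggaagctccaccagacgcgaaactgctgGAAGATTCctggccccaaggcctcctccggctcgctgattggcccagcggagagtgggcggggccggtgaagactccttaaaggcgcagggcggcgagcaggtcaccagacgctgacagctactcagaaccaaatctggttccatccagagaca
Dnaja1: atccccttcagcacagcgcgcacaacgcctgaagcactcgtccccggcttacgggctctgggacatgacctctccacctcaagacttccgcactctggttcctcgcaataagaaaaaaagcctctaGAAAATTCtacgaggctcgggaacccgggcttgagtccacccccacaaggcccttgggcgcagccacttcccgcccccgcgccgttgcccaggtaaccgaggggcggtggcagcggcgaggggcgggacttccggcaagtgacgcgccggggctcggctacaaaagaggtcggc
Chordc1: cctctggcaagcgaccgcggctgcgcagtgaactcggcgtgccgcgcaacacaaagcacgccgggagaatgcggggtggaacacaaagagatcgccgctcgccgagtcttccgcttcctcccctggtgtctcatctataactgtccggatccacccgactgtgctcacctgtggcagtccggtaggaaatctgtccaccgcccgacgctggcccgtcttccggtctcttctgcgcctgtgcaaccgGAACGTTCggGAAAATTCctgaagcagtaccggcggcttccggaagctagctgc
Chordc1 holds 2 such pairs around its start site and Hspa1a and Dnaja1 hold 1 each, while the 2 further Dnaja1 promoters in the table hold none. The pair was found in 9 of 19 promoters of the 13 heat shock genes with an entry (47.4%) and in 7.86% of all promoters. The longer form of 3 alternating units, on either strand, was in 26.3% and 0.603% of them.

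Hspa1a was at 3.75, 2.76, 3.00, 2.22 and 1.68 in D0 mice 1 to 5 and at 1.85, 1.16, 0.70, 1.64 and 0.19 in D1 mice 6 to 10. The groups overlapped only through D0 mouse 5, which lay below D1 mouse 6. The difference was -1.57 (SE 0.31, adjusted p = 0.172), a fold of 2.97, and was -1.41, -1.83 and -1.27 within the 3 slides. Hspa1a has a near-identical neighbour, Hspa1b, which was not matched to a probe here, and the probe may read both. Dnaja1 was at 1.94, 1.43, 1.83, 1.40 and 1.01 at D0 and at 1.04, 0.76, 0.55, 0.94 and 0.24 at D1, a difference of -0.82 (SE 0.16). Here too D0 mouse 5 was the single vehicle mouse inside the D1 range. A second Dnaja1 probe differed by -0.37, and the 2 further Hspa8 probes by -0.44 each. Without D0 mouse 5, the differences were -1.82 for Hspa1a, -0.94 for Dnaja1 and -0.73 for Chordc1, each with an adjusted p of 0.0371, and these 3 were called. When other mice were left out 1 at a time, the adjusted p of each of these 3 reached 0.377.

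Chordc1, an Hsp90 co-chaperone, was at 1.34, 0.87, 0.96, 0.90 and 0.58 at D0 and at 0.48, 0.50, 0.13, 0.32 and 0.02 at D1, with no overlap (difference -0.64, SE 0.12). Bag3, which releases clients from Hsp70, was at 1.15, 0.80, 0.82, 0.68 and 0.86 at D0 and at 0.44, 0.42, 0.36, 0.57 and 0.37 at D1 (difference -0.43, SE 0.09). Hspa8 was at 1.16, 0.88, 1.19, 0.98 and 1.16 at D0 and at 0.69, 0.74, 0.50, 0.71 and 0.36 at D1 (difference -0.47, SE 0.10). In all 3 genes every D1 mouse was below every vehicle mouse. Dnaja4, a J-domain gene outside the list, was likewise lower without overlap, at 4.63 ± 0.21 (SD) and 4.03 ± 0.22, a difference of -0.61 (-0.34 by a second probe). Of the other members, Hsph1 had a difference of -0.97 (-1.10 by a second probe), Dnajb1 of -0.57, Hspe1 of -0.55 (-0.32 and -0.68 by the further probes), Stip1 of -0.47, Hspd1 of -0.46 and Dnajb4 of -0.30. In single D1 mice, 5, 13, 14, 6 and 15 of the 16 genes lay below all vehicle mice in mice 6 to 10, where the share of all genes was 9.17%, 21.6%, 14.2%, 11.5% and 16.9%. Mice 6 and 9 thus had the fewest low members. The list's median within the 3 slides was -0.19, -0.68 and -0.53, and leaving out any 1 mouse left 9 to 12 members under the threshold.

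**Figure D3:**
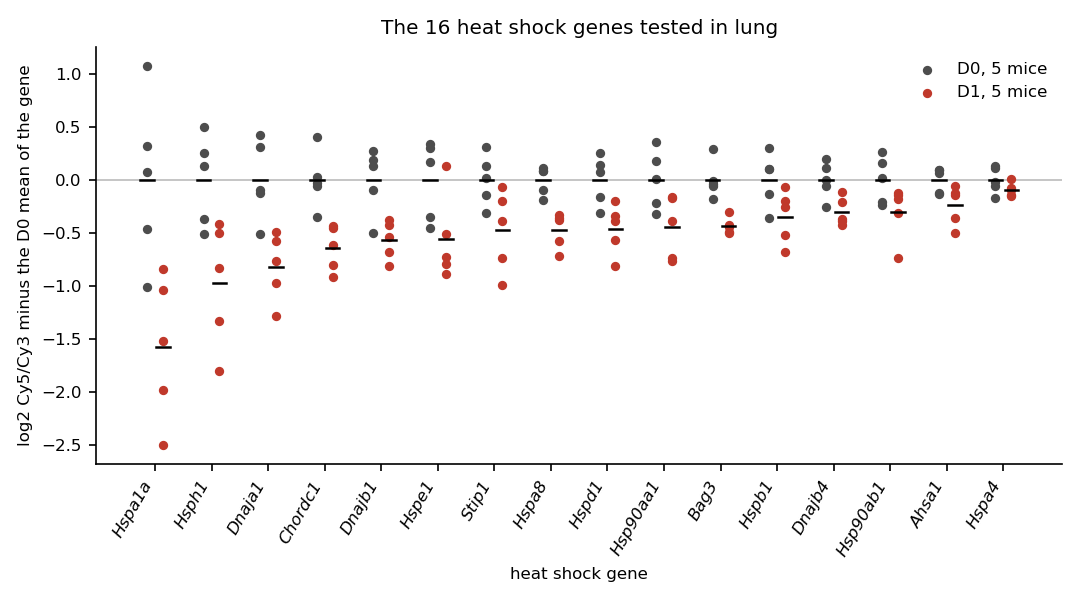
Log2 Cy5/Cy3 of the 16 heat shock genes tested, each minus its D0 mean (y axis), for the 5 D0 mice (grey) and 5 D1 mice (red), with black bars for group means and genes ordered by the size of the difference (x axis). Every D1 mean is below the D0 mean, from -1.57 in Hspa1a to -0.09 in the gene with the smallest difference.

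Genes of acute inflammation were higher at D1. Of 13 tested, 12 were higher and 8 of them at an unadjusted p under 0.05, against 5.85% of all genes. The list's median was 0.40, and 0.18, 0.58 and 0.52 within the 3 slides. Every member overlapped between the groups, and D1 mouse 6 was above all vehicle mice for none of them. In mice 6 to 10, 0, 10, 9, 7 and 2 of the 13 genes were above all vehicle mice, where the share of all genes was 13.6%, 19.7%, 16.4%, 15% and 22.1%. Mice 7, 8 and 9 thus held most of the high values. Leaving out 1 mouse at a time left 4 to 11 members under the threshold, the lowest without D1 mouse 7.

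Saa3, an acute-phase serum amyloid made locally in lung, was at 0.50, -4.16, -3.42, -3.08 and -3.13 in D0 mice 1 to 5 and at -3.18, 4.56, 1.82, 4.89 and -1.65 in D1 mice 6 to 10. D1 mice 7, 8 and 9 were above every vehicle mouse, and the highest vehicle value was that of D0 mouse 1. The difference was 3.94 (SE 1.26, adjusted p = 0.413), a fold of 15.4, and within the slides it was -1.35, 6.77 and 4.56. Ccl2, which attracts monocytes, was at -3.59, -3.90, -3.63, -3.76 and -3.77 at D0 and at -3.91, -1.35, -2.96, -0.96 and -3.95 at D1. Its vehicle values were tight, D1 mice 7, 8 and 9 were above them and D1 mice 6 and 10 just below. The difference was 1.10 (SE 0.41, adjusted p = 0.525), or 0.69 without D1 mouse 9. Il1b, the gene of interleukin 1 beta, was at 2.40, 0.73, 1.83, 2.63 and 1.77 at D0 and at 2.41, 3.42, 4.30, 3.13 and 2.42 at D1, a difference of 1.26 (SE 0.38, adjusted p = 0.39). The neutrophil attractants Cxcl5 and Cxcl1 were higher by 1.33 and 0.64, the chemokine Ccl4 by 0.85, the iron-sequestering Lcn2 by 0.40 and the cytokine feedback inhibitor Socs3 by 0.39. The 16 interferon-stimulated genes did not share this, with 6 higher (13 with median centring), 10 lower and 0 at an unadjusted p under 0.05.

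Genes of myeloid cells were higher in the same comparison. Bulk tissue does not separate more cells of a type from more RNA per cell. Of 9 macrophage genes 8 were higher (median 0.39, 3 under p 0.05), and of 7 neutrophil genes 6 were higher (median 0.65, or 0.31 without D1 mouse 8, and 2 under p 0.05). S100a8, a subunit of neutrophil calprotectin, was at 2.99, 0.78, 2.56, 4.51 and 2.50 at D0 and at 2.86, 3.76, 7.57, 3.71 and 3.30 at D1. D1 mouse 8 was far above all others and the remaining D1 mice were inside the vehicle range. The difference was 1.57 (SE 0.68) and 0.74 without D1 mouse 8, after which 1 neutrophil gene was under the threshold. Retnlg, a resistin-like gene of neutrophils, was highest in the same mouse, at 5.51 against 2.32 to 3.09 in the other D1 mice, and its difference was 1.40 (SE 0.46), or 0.82 without that mouse. Mmp8, neutrophil collagenase, was at 1.47, 0.69, 1.24, 1.53 and 0.34 at D0 and at 1.60, 1.76, 4.42, 2.83 and 2.15 at D1. All D1 mice were above all D0 mice, and the difference of 1.497 (SE 0.38, adjusted p = 0.277) was the largest positive one among the named genes without overlap. It was 1.03 without D1 mouse 8, and the probe was well above background on 4 of 5 D0 arrays. The macrophage genes Csf1r (the CSF1 receptor), Adgre1 (F4/80) and Itgax (CD11c) had differences of 0.48, 0.63 and 0.29, and without D0 mouse 5 there was 1 macrophage gene under the threshold. The further probes of Csf1r were at 0.45 and -0.01, so that its probes disagreed, and that of Adgre1 at 0.68. The difference of Itgax was 0.16 without D1 mouse 7. Within slides the macrophage median was -0.11, 0.08 and 0.81 and the neutrophil median 0.54, 1.70 and 0.05. The part of these cells in the inflammatory values was not tested.

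Several of the 8 higher genes with the lowest p-values were also leukocyte genes. Igsf6, an immunoglobulin-superfamily gene of myeloid cells, was at 1.58, 0.69, 1.21, 1.91 and 1.26 at D0 and at 1.48, 3.06, 3.04, 2.64 and 2.19 at D1. All D1 mice but mouse 6 were above every vehicle mouse. Its difference was 1.15 (SE 0.24, adjusted p = 0.172), a fold of 2.22, and it was called without D1 mouse 6 (1.40, adjusted p = 0.0183). When other mice were left out 1 at a time, its difference fell to as little as 0.99 and its adjusted p reached 0.479. Nrros, which restrains oxidant production in phagocytes, was at 0.33, 0.37, 0.37, 0.72 and 0.19 at D0 and at 0.73, 1.15, 1.13, 0.94 and 0.85 at D1. Tifa, an adaptor of TRAF6 signalling, was at -0.38, -0.32, -0.50, -0.17 and -0.26 and at 0.19, 0.89, 0.48, 0.28 and -0.01. Neither gene overlapped between the groups, and the differences were 0.56 (SE 0.11) and 0.70 (SE 0.14). Tlr1, a receptor for bacterial lipopeptides, and the phosphatase gene Ptpn6 (SHP-1) were higher without overlap by 0.59 (SE 0.12) and 0.54 (SE 0.11). Among the largest positive differences without overlap were the tetraspanin Cd53 at 0.75, the kinase Prkcb at 0.72, the granule proteoglycan Srgn at 0.68 and Sirpb1c at 0.77, a gene with close copies that its probe may not separate. The remaining genes of the lowest p-values were Cpt1a, which admits fatty acids to mitochondria (0.38, SE 0.08, and 0.21 by a second probe), the vesicle tethering subunit Trappc1 (0.32, SE 0.06, and 0.19 by a second probe) and Lefty1, an inhibitor of Nodal (0.60, SE 0.12). Cpt1a was the most even of these at D1, at 1.47 ± 0.03 (SD) against 1.09 ± 0.12 at D0. With median centring and slide as a block together, a setting chosen after seeing the data, 198 of 30383 probes were called, 196 of them higher. Among them were Nrros, Tifa, Ptpn6, Igsf6, Cpt1a, Lefty1, Cd53, Prkcb, Srgn, Csf1r and Cyp1b1 above and Hspa1a below. That setting moved the median difference of all probes to 0.15, and 97.5% of its probes at an unadjusted p under 0.05 were higher.

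**Figure D4:**
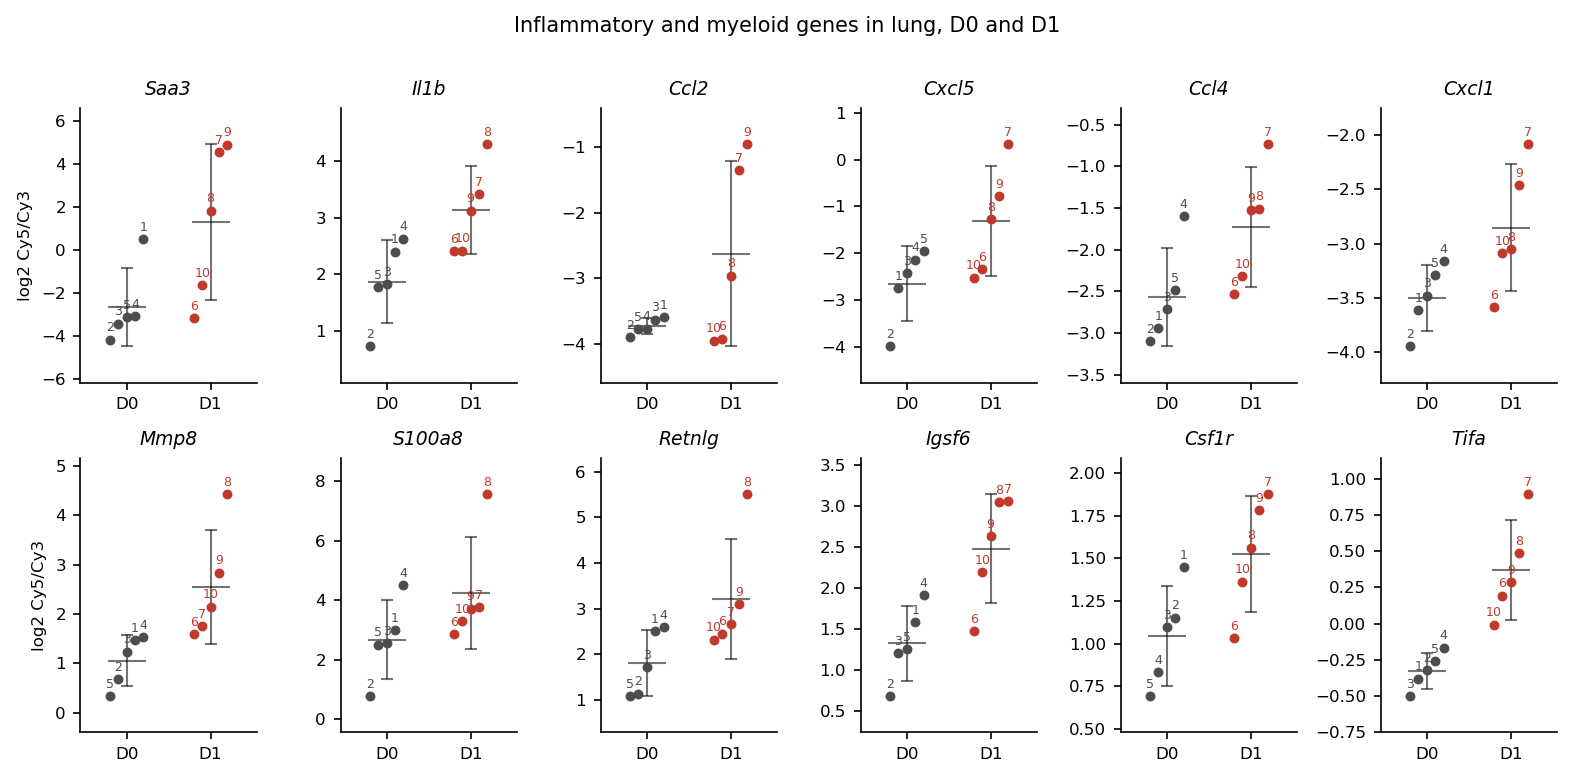
Log2 Cy5/Cy3 (y axis) of 12 inflammatory and myeloid genes by mouse (points, numbered by mouse), with the group mean and SD, for D0 and D1 (x axis). D1 mouse 8 has the highest S100a8, Retnlg and Mmp8, D1 mice 7 and 9 the highest Saa3 and Ccl2, and D1 mouse 6 is within or below the vehicle range for every inflammatory gene of the upper row.

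B cell genes were also higher, and in a different order of mice. Of 13 tested 11 were higher, 7 at an unadjusted p under 0.05 (5.85% of all genes), with a median of 0.34 and within-slide medians of 0.54, 0.14 and 0.36. Without D0 mouse 2, 4 were under that threshold. Fcmr, the IgM Fc receptor, was at 4.19, 3.78, 3.98, 3.72 and 4.22 at D0 and at 4.85, 4.44, 4.19, 4.59 and 4.63 at D1 (difference 0.56, SE 0.13, adjusted p = 0.247). Fcer2a (CD23) was at 1.505, 1.23, 1.32, 0.93 and 1.16 at D0 and at 2.33, 1.33, 1.72, 1.59 and 1.86 at D1 (difference 0.54, SE 0.16). D1 mouse 6, the lowest for inflammatory genes, was the highest for both. It had 11 of the 13 B cell genes above all vehicle mice, where the share of all genes was 13.6%. D1 mouse 7 had 4 above and 3 below all vehicle mice, where the shares of all genes were 19.7% and 21.6%. The antigen receptor subunit Cd79b was higher by 0.45, Ms4a1 (CD20) by 0.43, the inhibitory receptors Btla and Cd72 by 0.62 and 0.45 and the linker Blnk by 0.31. T cell genes were higher in 9 of 10 (median 0.14) and plasma cell genes in 3 of 4 (median 0.10), with 0 under the threshold in either list.

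Smooth muscle and ciliated cell genes were lower. All 5 smooth muscle genes were lower (median -0.47, 2 under p 0.05), and 3 of 5 with median centring (median -0.19). Myh11, the smooth muscle myosin heavy chain, was at 3.82, 4.12, 3.49, 3.57 and 3.90 at D0 and at 3.54, 3.17, 3.23, 3.38 and 3.26 at D1, a difference of -0.47 (SE 0.12, adjusted p = 0.268). Calponin, Cnn1, was at 3.85, 4.23, 3.83, 4.10 and 3.93 and at 3.78, 3.52, 3.46, 3.50 and 3.09, without overlap (difference -0.51, SE 0.18). The actin-binding gene Synpo2, outside the list, was lower without overlap by a log2 difference of -0.79 (SE 0.25). In Myh11 D1 mouse 6 alone reached into the vehicle range. Without D0 mouse 5 the list's median was -0.26, and within the slides it was -0.25, -0.19 and -0.52. All 8 ciliated cell genes were lower (median -0.26, 1 under p 0.05), but 6 were higher with median centring (median 0.05), with Tppp3, a tubulin-binding gene, at -0.31 (SE 0.12) in the loess values, where the median was 0.15, 0.06 and -0.75 within the slides and -0.13 without D1 mouse 7. Sec14l3, a lipid-binding gene of airway epithelium, had a difference of -0.88, of which D1 mouse 7 made the larger part (3.29 against 5.605 to 5.85 in the other D1 mice, and a difference of -0.40 without it).

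The lists for the other lung cell types all had a positive median with median centring, so that the lower ones among them turned. Alveolar type 1 genes were lower in 4 of 5 (median -0.11), with Ager, their surface receptor, at -0.22 (SE 0.09; 0.06 with median centring), and alveolar type 2 genes in 5 of 8 (median -0.04). Club cell genes were lower in 4 of 5 (median -0.15) and endothelial genes in 4 of 7 (median -0.01), although the endothelial sialomucin Emcn was higher by 0.48 (SE 0.19). Fibroblast genes were higher in 6 of 8 (median 0.28, 0 under p 0.05), with within-slide medians of -0.28, -0.05 and 1.06 and medians of 0.04 without D1 mouse 7 and 0.14 without D0 mouse 5. Among the lists for other tissues, skeletal muscle genes were lower in 6 of 6 (median -1.40) and squamous genes in 4 of 4 (median -0.76), and without D0 mouse 5 these medians were -0.14 and 0.07. Tnnt3, fast troponin T, and Ppp1r3a, a glycogen regulator of muscle, were lower without overlap at -1.70 and -0.72, and were at -0.44 and -0.33 without that mouse. Heart muscle genes had a median of -0.41, which was -0.08 without D0 mouse 5, 0.06 without D0 mouse 4 and 0.01 with median centring. Fat cell genes had a median of 0.01 and red blood cell genes of -0.18, with 0 members of the 3 lists under p 0.05. The single thymus and thyroid genes tested differed by 0.02 and 0.26, the latter being Tg, dim in lung and well above background on 3 of 5 D0 arrays.

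Lists for transcription and RNA control held single members with small differences. Srsf5, a splicing factor of the SR family, was at -1.23, -1.26, -1.23, -0.96 and -1.38 at D0 and at -0.74, -0.78, -0.75, -0.83 and -0.40 at D1. All D1 mice were above all D0 mice, and the difference was 0.51 (SE 0.13, adjusted p = 0.262). The 16 splicing genes had a median of 0.01, and Tra2a, another splicing regulator, was lower by a log2 difference of -0.25 (SE 0.09) and at 0.07 with median centring. Cirbp, the cold-inducible RNA-binding gene, was higher by 0.35 (SE 0.15), the 4 nuclear long RNAs had a median of -0.15 (0.15 with median centring) and Kcnq1ot1, a member, was lower by a log2 difference of -0.39 (SE 0.13) and at -0.08 by a second probe. Clock output genes were higher in 9 of 10 (median 0.15, 0 under p 0.05). In D1 mouse 8 alone 8 of the 10 lay above all vehicle mice (16.4% of all genes). Without that mouse their median was 0.01, without D0 mouse 3 it was 0.06, and within the slides it was -0.10, 0.95 and -0.13. The 3 clock genes of opposite phase were lower (median -0.33, with Clock at -0.33, SE 0.14), with medians of -0.16 without D1 mouse 8, -0.13 without D0 mouse 3 and -0.08 with median centring, under which 1 was higher. The 17 immediate early genes had a median of 0.05, with Egr2 at 0.42 (0.23 without D1 mouse 7), Junb at 0.20 and Fosb at -0.30, and the 9 glucocorticoid-responsive genes had a median of -0.07. Of the lower genes with the lowest p-values outside the heat shock genes, the orphan receptor gene Gpr141b was at -0.62 (SE 0.13, without overlap) and the inositol transporter gene Slc5a3 at -0.50 (SE 0.12).

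Whether the lowest dose differed from the higher ones was tested directly. The vehicle mice did not enter these differences, only the estimate of the spread. Between D2 and D1, 30 probes were called (0.0987%), 28 of them higher at D2 (0.0922%) and 2 lower (0.00658%), and between D3 and D1, 296 (0.974%), 221 of them higher at D3 (0.727%) and 75 lower (0.247%), while median centring called 0 in both. Without D1 mouse 7 the counts were 0 and 181, and without D1 mouse 6 the first was 87. Of the heat shock genes named above, Hspa1a, Dnaja1 and Hspa8 were called here, all lower at D3 than at D1. Hspa1a was lower at D3 than at D1 by a log2 difference of -1.38, with an adjusted p of 0.0186. Dnaja1 differed in the same way by -0.92, with an adjusted p of 0.0041, and 2 of the 3 Hspa8 probes by -0.61 (adjusted p = 0.0102) and -0.66 (adjusted p = 0.0114). The Hspa8 probe whose values are given above differed by -0.56 (adjusted p = 0.00334), under the fold threshold. Ccl2 was lower at D3 than at D1 by a log2 difference of -1.71 (adjusted p = 0.0264) and Cd53 by -0.67 (adjusted p = 0.0436). Srsf5 stood 0.74 above its D1 level in D2 mice and 1.02 above it in D3 mice, at adjusted p of 0.0168 and 0.00044. Cirbp stood 0.94 above in D3 mice, at an adjusted p of 0.00215. Saa3 was lower in D2 and D3 mice than in D1 mice by differences of -4.08 and -4.29, with adjusted p of 0.173 and 0.0647, and Cyp1a1 by -2.17 and -2.39 (adjusted p = 0.309 and 0.147), so neither passed. Myh11 was higher at D3 than at D1 by 0.49 (adjusted p = 0.0272), again under the fold threshold.

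By gene, 0.0757% were called for D2 minus D1 and 1.14% for D3 minus D1, and 0.716% and 2.28% for D2 and D3 against vehicle. Side by side with the shared vehicle mice, the inflammatory list had medians of 0.40, -0.13 and -0.05 at D1, D2 and D3, and the neutrophil list 0.65 (0.31 without D1 mouse 8), 0.13 and -0.10. Smooth muscle genes had -0.47, 0.12 and 0.12. The heat shock list had -0.47, -0.36 and -0.57 with 0, 5 and 8 members called, the B cell list 0.34, 0.63 and 0.37 with 0, 7 and 4, and the AhR target list -0.06, -0.24 and -0.22 with 0, 0 and 1.

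**Figure D5:**
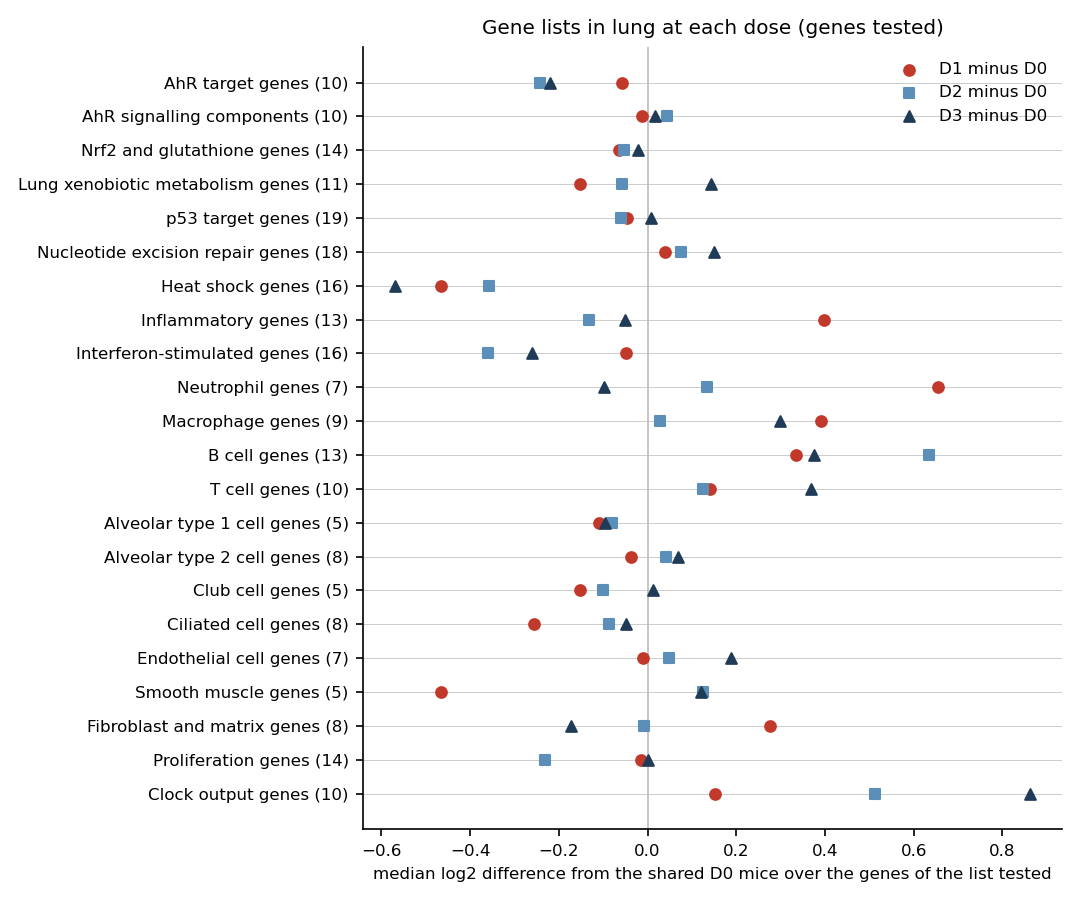
Median log2 difference from the vehicle mice (x axis) over the tested genes of each list (y axis, number of genes in brackets) at D1 (circles), D2 (squares) and D3 (triangles), which share the 5 D0 mice. The inflammatory and neutrophil lists are at 0.40 and 0.65 at D1, the latter at 0.31 without D1 mouse 8, and between -0.13 and 0.13 at D2 and D3, while the heat shock list is negative at all doses.

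The D1 effect in lung was also compared with that in the other tissues of the same mice, as an interaction. Against liver, 33 of 21868 probes were called (0.151%), all more positive in lung, with 6.07% at an unadjusted p under 0.05, and 63 (62 more positive in lung) with mouse as a block. With median centring 0 were called. Srsf5 was the gene among those named here that passed, with 0.51 in lung and -0.67 in liver, an interaction of 1.18 (SE 0.22, adjusted p = 0.00344). A more positive interaction can come from a lower value in liver as well as from a higher one in lung. Within liver, D1 minus D0 called 55 of 22789 probes (0.241%), where lung had 0. The splicing list had a median of 0.006 in lung and -0.39 in liver, and the nuclear long RNAs -0.15 and -0.75. Against forestomach 0 of 28434 probes were called and 1417 (4.98%) were at an unadjusted p under 0.05. The heat shock list had a median of -0.47 in lung, -0.22 in liver and -0.29 in forestomach, and the interactions of Hspa1a missed the threshold, with a D1 effect of -0.68 in liver and -0.98 in forestomach. Cyp1b1 was at -0.14 in liver and 0.41 in forestomach, and its lung effect minus that of liver was 1.501 (SE 0.40, adjusted p = 0.116). Cyp1b1 was dim in liver, and not well above background on some D0 and D1 liver arrays. The D1 effect of Cyp1a1 was larger in forestomach, at 2.64 (SE 1.11, adjusted p = 0.968), than in lung, at 1.07. The interaction of -1.57 (SE 1.23, adjusted p = 0.999) missed the threshold. D1 mouse 6, the lowest D1 mouse for Cyp1a1 in lung at 0.73, was the highest in forestomach at 7.07. D1 mouse 10 was inside the forestomach vehicle range at 0.55. The inflammatory list had medians of 0.40, 0.26 and 0.03 in lung, liver and forestomach, over 13, 8 and 11 genes. The neutrophil list had 0.65 (0.31 without D1 mouse 8), 0.43 and 1.16, over 7, 4 and 5 genes. These differences between tissues were not tested.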

How the data were processed

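RNA of each tissue and mouse was measured on an Agilent mouse 8x60K array, labelled with Cy5 against a reference in Cy3. Per the file headers, the scanner files hold each spot's median intensity, not log-transformed, from Feature Extraction 10.7.3.1, and its log10 ratio of processed signals, background-subtracted and dye-normalised by that software as deposited. The authors also deposited log2 ratios normalised by LOWESS, which served as an alternative. Of 62976 spots per array, 59305 carried gene probes. The median spot signals were used without background correction, as in the study's methods, and normalised by loess within each array with limma 3.58.1 in R 4.3.3. Outlier spots (0.495%) and control spots were left out, and spots of one probe averaged, giving 55681 probes. No spot of a tested probe was saturated. Symbols came from a RefSeq gene list (GRCm38.p6) by accession for 26413 probes. The array grid was built on mm9, so no probe coordinates are given.

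Probes entered the tests when flagged above background for Cy5 in 4 or more of the 20 lung arrays. A gene was represented by its probe with the highest mean Cy5 signal. The 20 arrays of 4 dose groups entered one limma model, so the spread was shared, and contrasts used its moderated two-sided test with Benjamini-Hochberg adjustment over all probes. A probe was called at an adjusted p of at most 0.05 and a fold change of at least 1.5. The study used MAANOVA, which was not installed. Adjusted p-values in the text are limma's. Tissues were compared by interaction contrasts in one model of 12 groups. Mouse numbers mark the same animal across tissues, and the deviations of a mouse's lung and liver arrays from their group means correlated with a median r of 0.125 over 19 mice (0.093 for forestomach), so mouse as a block is given beside the interaction it moved.

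The 10 arrays lay on 3 slides, with D0 mice 1 and 2 and D1 mouse 6 on slide 1, D0 mouse 3 and D1 mice 8 and 9 on slide 2, and the rest on slide 3. Replicates are separate animals, whose number limits the precision. Pairs of arrays correlated with r of 0.892 to 0.973 within D0 and 0.935 to 0.966 within D1, and none were identical. Genes were named by rule, namely the 8 lowest p-values each way, the 6 largest differences each way without overlap, all AhR target genes, and members of lists under an unadjusted p of 0.05. The dose comparison and the gene lists were chosen with earlier results of these data known. For lists without a member under that threshold, the brightest member is named only as a tissue marker, and counts are given otherwise. The script was tested on simulated data. Alternatives were normexp background correction (on median signals, offset 50), the authors' log2 ratios, Agilent's processed signals, median centring, Cy5 alone, slide as a block, other filters and leaving out each mouse.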

Additional observations from a re-analysis of the deposited data

Results flagged for a closer look

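Among the 5 mice of a group, chance sets 1 value apart in about 1 group in 20. The 90 genes were each checked in the D0 and in the D1 group. Single values lay far from the rest for 14 of them, and only for Tnnt3 in both groups. In D0 mouse 5 these were Tnni2 at 6.88, Tnnt3 at 5.69, Krt14 at 3.54, Aldh3a1 at 3.05, Ppp1r3a at 2.65 and Gsta1 at 0.58 (log2 Cy5/Cy3). In D1 mouse 8 they were S100a8 at 7.57, Retnlg at 5.51 and Sirpb1c at 2.94. In D1 mouse 7, Sec14l3 was low at 3.29 and Cd72 high at 0.51, and Cd72 differed by 0.19 without it. In D1 mouse 10, Srsf5 was high at -0.40 and Tnnt3 low at -1.22. Saa3 was high in D0 mouse 1 at 0.50, without which its difference was 4.73, and Btg2 in D0 mouse 2 at 0.75.

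The D1 effect on Srsf5 was more positive in lung than in liver by 1.18 on the log2 scale (SE 0.22, adjusted p = 0.00344 by limma's interaction contrast), and was higher in 5 of 5 D1 lungs than in any vehicle lung.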

How the results depend on the processing

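The count of probes called between D1 and D0 was 0 as reported and 1 with the authors' log2 ratios, 1 with slide as a block, 198 with median centring and slide as a block together (chosen after seeing the data) and 0 to 6 when leaving out 1 mouse. For D2 minus D1 the 30 calls became 53 with slide as a block, 0 with median centring and 0 to 87 when leaving out 1 D1 mouse. For D3 minus D1 the 296 became 0 with median centring and 181 to 388 when leaving out 1 mouse. For lung minus liver the 33 became 63 with mouse as a replicate block, 58 with slide as a block, 0 with median centring and 11 (without D0 mouse 3) to 110 (without D0 mouse 5) when leaving out 1 mouse. For lung minus forestomach the 0 stayed 0 with the replicate block and was 0 to 4 when leaving out 1 mouse. The causes were not tested. No paired analysis was possible for D1 versus D0 because the groups are different mice and share no numbers.

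Of 90 genes checked, 79 kept their direction under every alternative run. With median centring, and with the slide block added, Ager was at 0.060 and 0.025, Btg2 at 0.16 and 0.12, Cyp2f2 at 0.20 and 0.17, Gsta2 at 0.11 and 0.062, Ptges3 at 0.045 and 0.033, Scgb1a1 at 0.14 and 0.10, Sftpc at 0.29 and 0.25, Tiparp at 0.29 and 0.25 and Tra2a at 0.067 and 0.023. Sftpc was at 0.045 with Cy5 alone and Tiparp at 0.00011 with slide as a block. When leaving out 1 mouse, Gsta2 ranged from -0.38 to 0.033, Tiparp from -0.082 to 0.083, Ugt1a6a from -0.054 to 0.15 and Krt14 from -1.05 to 0.12. Each group had 5 arrays, which limits the precision, and dim probes such as that of Ahrr lay near background on some of them.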
